A study of Caenorhabditis elegans with 9 samples.

Results

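Young adult Caenorhabditis elegans of the group labelled PATR1 were compared with wild type (WT) by sequencing messenger RNA of whole animals. The comparison rests on 6 of the 9 libraries in the series, 3 from PATR1 and 3 from WT, chosen by their labels alone, and it covers the 17512 genes that had enough counts to be tested, of 46926 in the count files. The remaining 3 libraries are labelled UNC5, and serve here only to test whether a value in PATR1 also differs from a further mutant group. The design text describes synchronized populations and names a strain with a stop codon at Cys348 of unc-5, the receptor for the guidance cue netrin, but ties it to no label. The labels give genotype and tissue (whole body) for each library. They do not say what PATR1 stands for, which allele the animals carried, or whether replicates were separate cultures, so a p-value here covers only how far libraries of one group lie apart, and that distance may be technical.

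Whole adult hermaphrodites hold RNA of a large germline, in which oocytes are packed with maternal messenger RNA and fertilized eggs build a chitin and proteoglycan shell before the embryo starts its own transcription. The rest of the RNA comes from the intestine, which stores fat, digests bacteria and makes yolk, and from epidermis, muscle, pharynx and neurons. The epidermis secretes a collagen cuticle anew at each moult, using collagen genes that are transcribed in waves, so the level of a cuticle collagen depends strongly on the stage at which animals are collected. Many of the tested genes carry no gene name beyond the clone they were sequenced on (such as C13A2.12), and for these no function is given here.

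The PATR1 libraries held 40657619 to 55150409 counted reads and the WT libraries 56713370 to 60642199. Unmapped reads were 2.86% to 6.02% of reads in PATR1, against 0.621% to 0.629% in WT, and reads that fit several places were 3.12% to 3.16% in PATR1, against 4.69% to 4.96% in WT; their part in the results was not tested. Levels are given in CPM (counts scaled to a common library total with TMM factors). Libraries of a group had Spearman correlations of log2 CPM of 0.998 to 0.999, and PATR1 and WT libraries of 0.953 to 0.955. Defining markers of germline, sperm, muscle, pharynx, intestine, epidermis and neurons were all detected in both groups, while the male marker cwp-1 had at most 0.0506 CPM in any of the 6 libraries. The male marker her-1 had 0.792, 1.13 and 0.831 CPM in PATR1, against 0.523, 0.669 and 0.635 CPM in WT. Its log2 fold change was 0.57 (adjusted p = 0.0078, edgeR). The male marker pkd-2 had 0.271, 0.206 and 0.208 CPM in PATR1, against 0.152, 0.217 and 0.127 CPM in WT (adjusted p = 0.23, edgeR). unc-5 had 13.8, 13.8 and 12.8 CPM in PATR1 libraries, against 16.7, 18.4 and 18.3 CPM in WT libraries (log2 fold change -0.40 ± 0.0544, adjusted p = 4.5e-08, edgeR). patr-1, which encodes a partner of mRNA decapping, had 298, 288 and 292 CPM in PATR1 libraries, against 226, 235 and 233 CPM in WT libraries (log2 fold change 0.34 ± 0.0317, adjusted p = 1.8e-11). The groups did not overlap for either gene, and an exact two-sided permutation test gave p = 0.1 for each, the smallest that 3 against 3 libraries allow. Neither change reached 2-fold, and with unknown alleles these levels do not check the labels.

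A gene was called at a Benjamini-Hochberg adjusted p below 0.05 (edgeR quasi-likelihood test over all tested genes) and a log2 fold change above 1 in size, and below "rose" and "fell" are used of called genes only. In PATR1 1054 genes rose (6.02% of those tested) and 1831 fell (10.5%). By the adjusted p alone, 6780 genes were higher (38.7%) and 7860 lower (44.9%). Replicates varied little, with a common biological coefficient of variation of 3.14%. The 3 PATR1 libraries lay above the 3 WT libraries for 38.8% of tested genes and below them for 45.2%. They did so, without overlap, for each gene named below as risen or fallen. The median log2 fold change of all tested genes was -0.11. Scaling by relative log expression (RLE) moved it to -0.16 and by library sizes alone to -0.23, so changes close to 2-fold depend on the scaling. The share of calls that were higher was 36.5% in the main analysis, against 24.9% with library sizes alone and 23.8% with a filter of at least 5 CPM in 3 libraries. The falls reached further than the rises: 641 genes fell over 4-fold and 239 over 16-fold, whereas 178 rose over 4-fold and 11 over 16-fold. The genes that fell took 1.35% of the summed CPM in PATR1 and 5.02% in WT, and those that rose took 4.19% in PATR1 and 1.83% in WT.

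**Figure D1:**
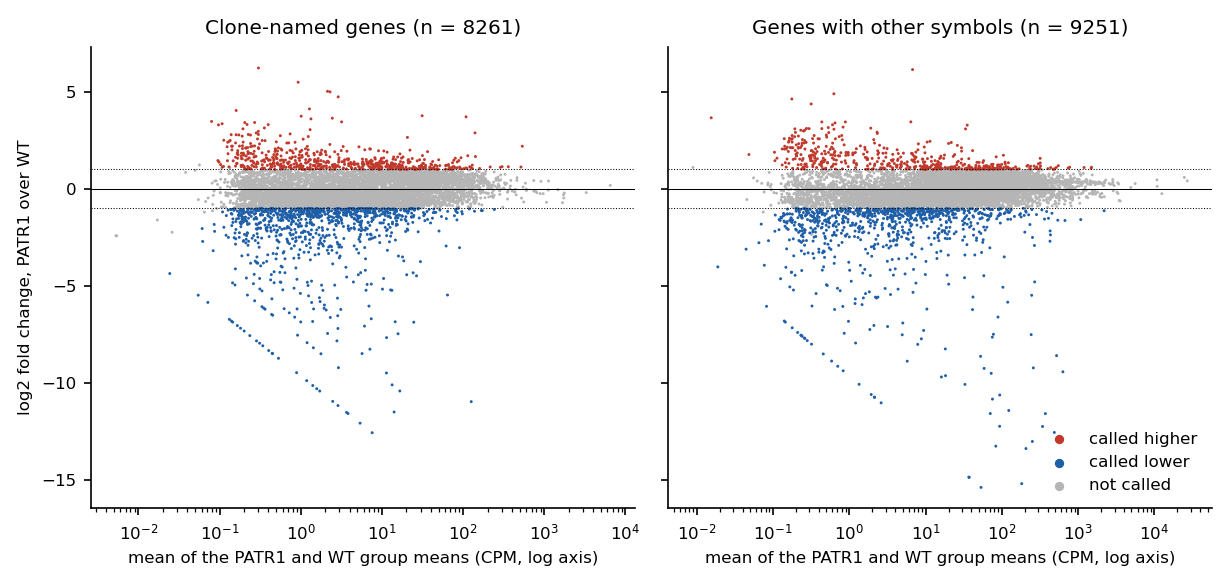
Log2 fold change (PATR1 over WT) of each tested gene against its mean level in CPM (log axis), for the 8261 clone-named genes (left) and the 9251 others (right), with called genes coloured and dotted lines at 2-fold. Falls run far deeper than rises in both panels; genes without a read in PATR1 form the sloping lower edge, where the fitted value depends on the prior count.

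The deepest falls were of cuticle genes. Cuticle collagens build the exoskeleton, and 9 of the 12 largest falls, counted among genes whose mean reached 5 CPM, were collagens of the col family. col-114 had no read in any PATR1 library, against 107, 107 and 107 CPM in WT, which makes it at least 4837-fold lower (3 counts over the group as the floor). col-185 and col-35 also had 0 counts in PATR1 and were at least 3380-fold and 3348-fold lower. col-37 had a single PATR1 read, in replicate 2, against 373, 360.3 and 359 CPM in WT; the 95% counting interval of its ratio runs from 8880-fold to 1954400-fold lower, and without that replicate it has no read. col-36 had 0.226, 0.18 and 0.0945 CPM in PATR1 libraries, against 1003, 954 and 967 CPM in WT libraries (log2 fold change -12.53 ± 0.0863, adjusted p = 6.0e-40). cut-1, a cuticlin of the non-collagen cuticle, had 0.249, 0.0773 and 0.0945 CPM in PATR1 libraries, against 649.9, 672 and 727 CPM in WT libraries (log2 fold change -12.23 ± 0.128, adjusted p = 1.5e-18; -12.90 without PATR1 replicate 1). For all of these, no PATR1 library came near a WT library. With reads of both strands counted, the fitted log2 fold change was smaller for col-35 (-6.66) and for col-114 (-12.36).

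Clone-named genes of chromosome V were next in depth. C13A2.12 (chromosome V, 7259265 to 7260041, WBcel235) had 0.113, 0.129 and 0.132 CPM in PATR1 libraries, against 258, 259.9 and 239 CPM in WT libraries (log2 fold change -10.95 ± 0.0831, adjusted p = 7.5e-41). C13A2.4 and C13A2.6, its neighbours, had 0 counts in PATR1 and were at least 688-fold and 488-fold lower. Compared with UNC5, C13A2.12 was also lower in PATR1 (log2 difference -2.03 ± 0.319), although it stood at a mean of 0.514 CPM there too.

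The rises were smaller. delm-2, a channel subunit of the DEG/ENaC family of sodium channels (of whose 14 tested genes 1 rose and 3 fell), had 14, 13.2 and 12.8 CPM in PATR1 libraries, against 0.219, 0.184 and 0.159 CPM in WT libraries, 71.2-fold higher (log2 fold change 6.14 ± 0.124, adjusted p = 8.2e-29). It was also higher than in UNC5 (log2 difference 2.81 ± 0.0873). tbb-6, a beta-tubulin, had 64.3, 63.6 and 63.3 CPM in PATR1 libraries, against 6.68, 6.17 and 6.84 CPM in WT libraries (log2 fold change 3.28 ± 0.0474, adjusted p = 5.6e-33). rnh-1.3, of the ribonuclease H family, had 60.9, 58.5 and 59.9 CPM in PATR1 libraries, against 7.19, 6.27 and 7.65 CPM in WT libraries (log2 fold change 3.08 ± 0.0535, adjusted p = 9.9e-31). Its level in PATR1 exceeded that in UNC5 by about as much, with a log2 difference of 3.18 ± 0.0578, so its level set PATR1 apart from both other groups. clec-190, with a C-type lectin domain, rose 10.9-fold to 11.2, 11.7 and 12.4 CPM in PATR1, against 0.979, 1.25 and 1 CPM in WT, and stood lower than in UNC5 (log2 difference -1.63 ± 0.0527). The other named rises among the 12 largest were gst-38 (a glutathione transferase, 5.47-fold), pgp-8 (a P-glycoprotein transporter, 5.31-fold), zipt-2.3 (a ZIP family metal transporter, 5.23-fold) and phat-4 (a peptide of the pharyngeal gland, 5.06-fold).

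Measured in transcripts rather than in fold, the largest gains among called genes included several of genes that build the egg. cpg-1 and cpg-2 encode chondroitin proteoglycans of the eggshell. cpg-1 had 2044, 2039.9 and 2046 CPM in PATR1 libraries, against 914, 950.2 and 970.5 CPM in WT libraries (log2 fold change 1.11 ± 0.0353, adjusted p = 2.0e-23). cbd-1, a chitin-binding protein of the shell's outer layer, had 2044, 1968 and 1981 CPM in PATR1 libraries, against 927, 976 and 973 CPM in WT libraries (log2 fold change 1.06 ± 0.0358, adjusted p = 1.1e-22). gfat-1, the entry enzyme of the hexosamine pathway that feeds chitin synthesis, had 712, 698 and 711 CPM in PATR1 libraries, against 313, 341 and 333 CPM in WT libraries (log2 fold change 1.10 ± 0.034). All 3 PATR1 libraries stood above all 3 WT libraries for each, but these rises lie close to 2-fold, and with library sizes alone cpg-1, cbd-1 and gfat-1 had log2 fold changes of 0.99, 0.94 and 0.98. Among called genes, the largest losses of transcripts were of vit-1, a yolk protein gene, with 1407, 1403 and 1324 CPM in PATR1 libraries, against 2988, 2974 and 3048 CPM in WT libraries (log2 fold change -1.12 ± 0.0358, adjusted p = 2.2e-23), and of collagens. col-43 had 2.17, 1.8 and 1.61 CPM in PATR1 libraries, against 1301, 1217 and 1263 CPM in WT libraries, and col-158 had 2.71, 2.84 and 2.63 CPM in PATR1 libraries, against 1046, 1068 and 1006 CPM in WT libraries. col-129 and col-139 stayed abundant, at 542 ± 8.27 CPM in PATR1 and 1620.0 ± 27.1 CPM in WT for col-129 and 328 ± 8.06 CPM in PATR1 and 1015 ± 21.4 CPM in WT for col-139 (SD, n = 3 each). icl-1, the glyoxylate cycle enzyme that turns fat into sugar precursors, had 118, 112 and 114 CPM in PATR1 libraries, against 735, 743 and 743 CPM in WT libraries (log2 fold change -2.69 ± 0.0331, adjusted p = 5.2e-35).

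**Figure D2:**
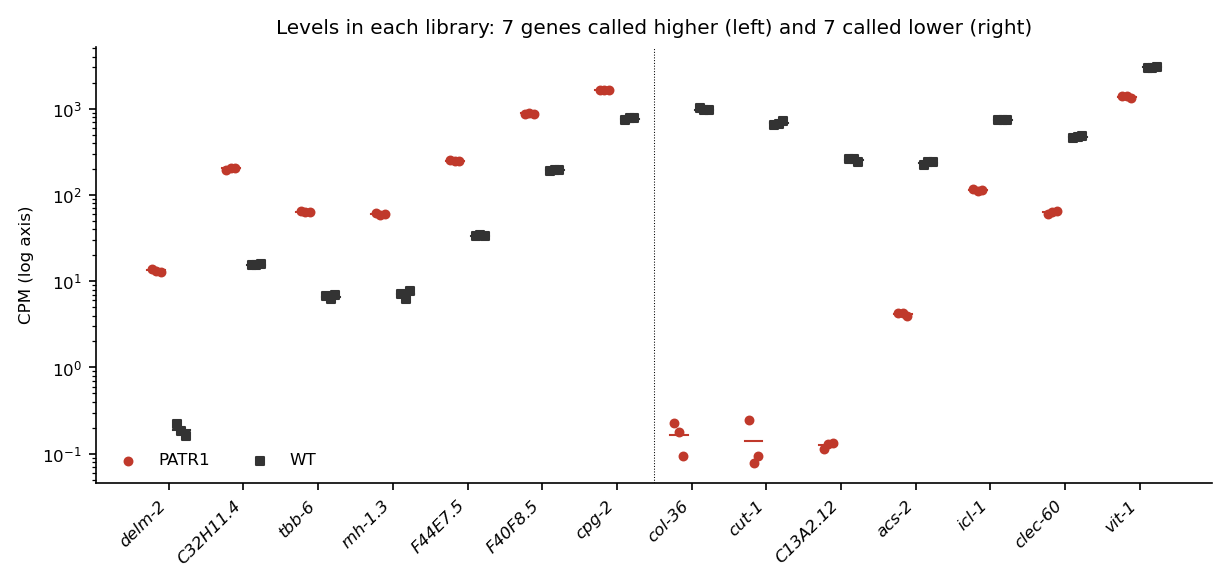
CPM (log axis) in each library for 14 genes, with PATR1 as red circles left of WT as dark squares, and a short line at each group's mean. delm-2 to cpg-2 stand higher in all 3 PATR1 libraries, and col-36, cut-1 and C13A2.12 stand below 1 CPM in PATR1, against 239 CPM or more in WT.

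Clone-named genes made up 47.2% of the tested genes, 54.6% of the genes that rose and 51.7% of those that fell. Of 8261 tested, 575 rose and 947 fell, with a median log2 fold change of -0.23, and of the 9251 genes with other symbols 479 rose and 884 fell, with a median of -0.01. Clone-named genes are on the whole less abundant, so the comparison was repeated within bands of mean level. Between 5 and 20 CPM, 6.25% of clone-named genes rose and 8.84% fell, against 4.65% and 10.2% of the others. Above 100 CPM, 5.90% of clone-named genes rose and 1.97% fell, against 2.54% and 3.20%. Below 1 CPM the order of the rises turned, with 214 of 1941 clone-named genes higher, against 168 of 1101 others. Falls were the smaller share of clone-named genes in each of the bands, and below 1 CPM 19.1% of clone-named genes and 24.3% of the others fell. These shares are descriptions, without a test.

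Among clone-named genes whose mean reached 5 CPM, the largest rise was that of F56C3.9 on chromosome X, with 61.1, 54.8 and 59.1 CPM in PATR1 libraries, against 4.76, 3.83 and 4.32 CPM in WT libraries, 13.6-fold higher (log2 fold change 3.76 ± 0.0592, adjusted p = 5.3e-31). C32H11.4 (chromosome IV, 12921264 to 12923296) had 196, 205 and 205 CPM in PATR1 libraries, against 15.3, 15.3 and 15.8 CPM in WT libraries, 13.1-fold higher. It was also above its level in UNC5 (log2 difference 0.98 ± 0.0315). F44E7.5 rose 7.36-fold, with 251, 245 and 244 CPM in PATR1 libraries, against 33.3, 34.1 and 33.2 CPM in WT libraries. The most abundant of these rises was F40F8.5 (chromosome II, 11132852 to 11134928), with 877, 899 and 866 CPM in PATR1 libraries, against 189, 193 and 196 CPM in WT libraries (log2 fold change 2.19 ± 0.0397, adjusted p = 6.3e-30). R02F2.1 rose 2.18-fold to 678, 719 and 727 CPM in PATR1, against 325, 323 and 328 CPM in WT. These levels set the PATR1 libraries well apart from WT. K11H12.4, Y58A7A.3, K09F6.13, K08D9.9, R08F11.4 and C30F2.4 rose 3.99-fold to 6.28-fold; for K09F6.13 the log2 fold change was 2.06, and 1.41 with both strands counted. R08F11.4 and C30F2.4 were at the same time lower than in UNC5, by log2 differences of -2.19 ± 0.0539 and -1.74 ± 0.0543.

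Outside the C13A2 cluster, the clone-named falls included Y50E8A.19, a pseudogene with 3 reads in PATR1, against 32.7, 34.7 and 32.2 CPM in WT, a fall between 515-fold and 7297-fold by its counting interval. Its fitted log2 fold change was -10.40, and -11.15 without PATR1 replicate 3. F07G11.1 had 3 reads in PATR1, against 27.9, 25.9 and 26.4 CPM in WT, a fall between 414-fold and 5872-fold by the same interval. Its fitted value was -10.09, with -11.03 without PATR1 replicate 2 and -9.43 without replicate 3. C33G8.13 had 0, 0.0773 and 0.0189 CPM in PATR1 libraries, against 23.2, 22.7 and 22.3 CPM in WT libraries (log2 fold change -9.47 ± 0.168, adjusted p = 2.0e-30; -10.80 without PATR1 replicate 2). Y57E12B.4 had 0.0679, 0.103 and 0.151 CPM in PATR1 libraries, against 21.8, 22 and 24.3 CPM in WT libraries (log2 fold change -7.65 ± 0.137, adjusted p = 2.4e-30). K08D9.2 had 0, 0.0516 and 0.0378 CPM in PATR1 libraries, against 11.2, 11.4 and 11.5 CPM in WT libraries, while its clone neighbour K08D9.9 rose.

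Genes named after the same clone lie side by side, which allowed neighbourhoods to be read. Of 572 clones with at least 5 tested clone-named genes, 44 had at least 50% of them called, 27 with at least 50% lower and 9 with at least 50% higher, and 199 had none called (edgeR). All 10 tested genes of C13A2, all 7 of ZK218 and all 5 of F07G11 fell, and 5 of 6 of F15H10 and 7 of 10 of T20D4. In the other direction, 5 of 7 of EEED8 and 4 of 5 of F14H3 rose, and 7 of 12 of C16C8, where 1 fell. C13A2 had a median log2 fold change of -10.62, or -7.77 with genes at 0 counts set to their bound, and ZK218 one of -2.73. Clones were chosen for display after their values were seen.

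Stretches of chromosome in which at least 8 of 10 neighbouring tested genes moved one way, whatever their names, numbered 7. This rule was set after the values were seen and carries no test. On chromosome V, from 7252244 to 7309589 (57.3 kb), all 17 tested genes fell, 16 of them clone-named from C05C8.8 through the C13A2 and F07G11 genes, and srj-32, a chemoreceptor gene, among them. Their summed level was 2.98 CPM in PATR1, against 425 CPM in WT. UNC5 also stood low there, at 4.92 CPM, though 6 of the 17 were lower still in PATR1 than in UNC5 by the same call, which 11.5% of all tested genes were (9.46% were higher). F07G11.3, in the same stretch, was called higher in PATR1 than in UNC5, and is named after its values were seen. On chromosome I, from 12272949 to 12411435 (138 kb), 30 of 35 tested genes fell and 1 rose. Here the summed level was 22.6 CPM in PATR1, against 162 CPM in WT and 419.9 CPM in UNC5, and 32 of the 35 were called lower in PATR1 than in UNC5.

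The chromosome I stretch holds members of a few families: oac acyltransferase genes, the nuclear receptor genes nhr-81, nhr-165 and nhr-77, and the glycosyltransferase-like genes bgnt-1.6, glct-4 and gly-17. oac-35 had 0.95, 0.876 and 0.831 CPM in PATR1 libraries, against 10.2, 10.9 and 10.5 CPM in WT libraries (log2 fold change -3.57 ± 0.0988, adjusted p = 4.8e-25), and nhr-81 had 0.973, 0.748 and 1.02 CPM in PATR1 libraries, against 5.76, 5.94 and 6.19 CPM in WT libraries (log2 fold change -2.68 ± 0.108, adjusted p = 1.0e-20). gmd-2, a GDP-mannose dehydratase, had 3.42 ± 0.235 CPM in PATR1 and 36.3 ± 0.459 CPM in WT (SD, n = 3 each). Elsewhere on chromosome I, from 11429014 to 11475662, all 9 tested genes rose, and 8 of them were also called higher than in UNC5. They include nhr-74, with 11.7, 12 and 11.7 CPM in PATR1 libraries, against 3.09, 3.25 and 3.16 CPM in WT libraries, and ZK1025.3, with 57.7 ± 0.66 CPM in PATR1 and 15.3 ± 1.39 CPM in WT. On chromosome II, 11 of 13 genes between 1676388 and 1736533 rose. These are mostly F-box and BTB domain genes such as fbxb-17 and btb-6, and none of the 13 was called different from UNC5; btb-6 had 11.3, 11.8 and 11.5 CPM in PATR1 libraries, against 4.76, 4.18 and 4.14 CPM in WT libraries. The other 3 stretches, all lower and on chromosome V, had 8 or 9 genes called, and include the antimicrobial peptide gene cnc-9, with 0.0905, 0.103 and 0.0567 CPM in PATR1 libraries, against 9.42, 9.64 and 10.9 CPM in WT libraries, and the aspartyl protease gene asp-8, with 11.2, 12.5 and 12.2 CPM in PATR1 libraries, against 49.3, 50.3 and 51.9 CPM in WT libraries. Genes named in this and the preceding paragraph only as residents of a stretch were chosen after their values were seen.

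**Figure D3:**
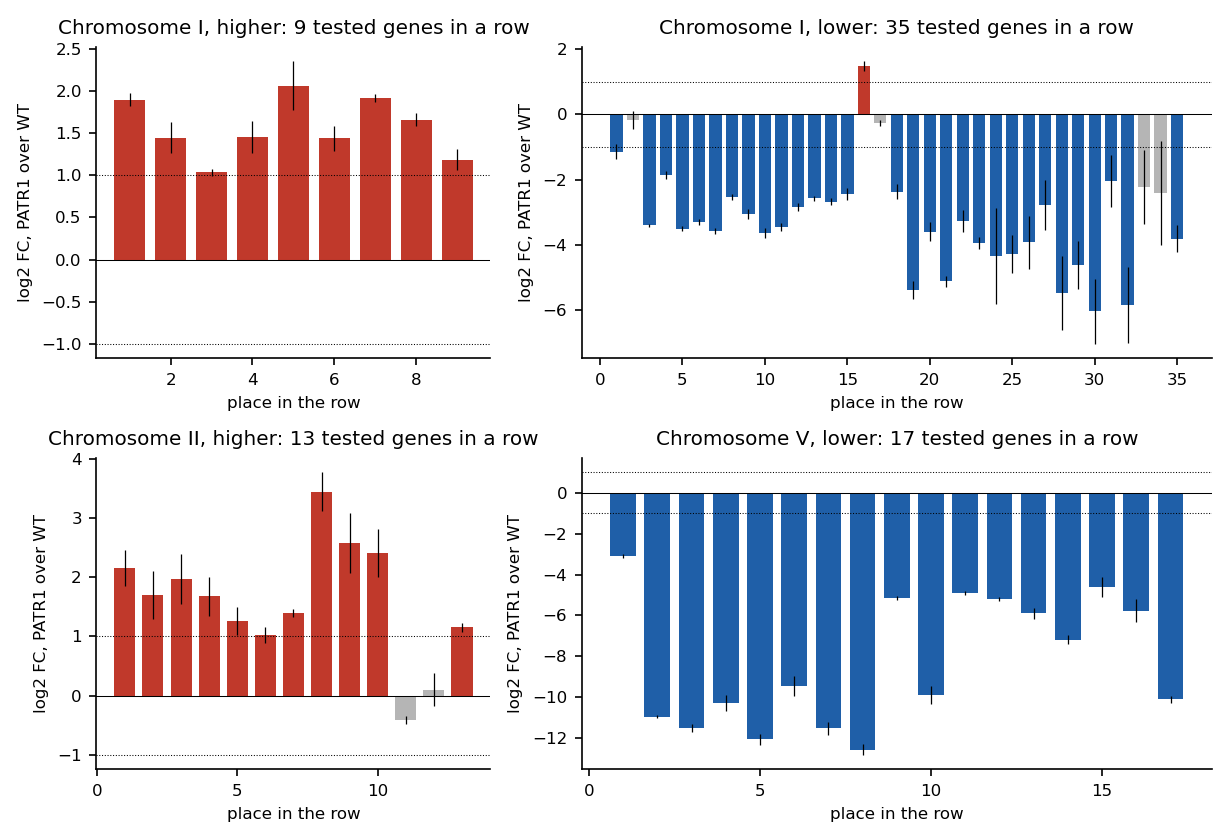
Log2 fold change (PATR1 over WT, bars; error bars, SE of the fit) of neighbouring tested genes in chromosome order, for 4 stretches, with dotted lines at 2-fold and called genes coloured. All 9 genes of the first stretch of chromosome I rise, 30 of 35 fall in the second, 11 of 13 rise on chromosome II and all 17 fall on chromosome V; values of genes without a read in PATR1 depend on the prior count.

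Gene families were also read from symbol stems (the letters before the hyphen). Of 159 stems with at least 10 tested members, 15 had at least 50% called, against 16.5% of all tested genes, and 39 had none. Near-identical copies are frequent in these families, and reads that fit several places are outside the counts, so single members are uncertain. Genes without enough counts were left out, and a gene expressed in one group alone passes that filter through the group where it is high.

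fbxb, a family of F-box genes, led the rises: of 104 annotated members 53 were tested and 41 rose, with a median log2 fold change of 2.12. Against UNC5, 2 of the 53 were called higher in PATR1 and 2 lower. The median log2 difference of these fbxb genes from UNC5 was 0.26. Their levels were low, as in fbxb-41, with 1.09, 0.954 and 0.831 CPM in PATR1 libraries, against 0.0675, 0.1 and 0.143 CPM in WT libraries, and fbxb-45, with 0.86, 0.799 and 0.963 CPM in PATR1 libraries, against 0.118, 0.184 and 0.111 CPM in WT libraries. Of 20 tested sdz genes, first described as SKN-1-dependent transcripts of the embryo, 15 rose and 2 fell. Against UNC5, 1 of the 20 was called higher and 1 lower, with a median log2 difference of 0.02. sdz-30 had 1.4, 0.98 and 1 CPM in PATR1 libraries, against 0.118, 0.151 and 0.127 CPM in WT libraries, whereas sdz-24 had 12.8, 13 and 12.6 CPM in PATR1 libraries, against 78.3, 82.1 and 80 CPM in WT libraries. Of 11 tested tbx genes (T-box transcription factors) 7 rose. Against UNC5, 2 of the 11 were called higher and 1 lower, with a median log2 difference of 0.25. tbx-43 had 3.17, 3.87 and 3.29 CPM in PATR1 libraries, against 0.473, 0.284 and 0.413 CPM in WT libraries, and tbx-9 had 8.23, 8.74 and 8.03 CPM in PATR1 libraries, against 2.99, 3.09 and 3.41 CPM in WT libraries. Of 16 btb genes 6 rose and 2 fell, and of 10 dod genes 3 rose and 2 fell. dod-24 was the most abundant of the called dod genes, with 165, 154 and 164 CPM in PATR1 libraries, against 48, 49 and 48.8 CPM in WT libraries, while dod-3 had 0.724, 0.619 and 0.68 CPM in PATR1 libraries, against 7.97, 7.9 and 8.82 CPM in WT libraries.

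More stems held mostly falls. Of 15 tested scl genes (secreted SCP-like proteins) 10 fell and 2 rose; scl-12, scl-13 and scl-1 had no read in PATR1 and were at least 237-fold, 193-fold and 195-fold lower. scl-12 had 5.91, 4.99 and 4.81 CPM in WT and a mean of 32.2 CPM in UNC5, whereas scl-1 was at 0 CPM in UNC5. scl-2, the most abundant of those named, had 8.03, 8.66 and 8.44 CPM in PATR1 libraries, against 64.4, 60 and 59.5 CPM in WT libraries. Of 49 oac genes 19 fell and 6 rose, of 32 pals genes 17 fell, of 19 fipr genes (fungus-induced peptides) 13 fell and 1 rose, and of 12 mltn genes 7 fell and 1 rose. mltn-7 had 0.271, 0.438 and 0.737 CPM in PATR1 libraries, against 14.2, 14.8 and 14.4 CPM in WT libraries, and mltn-1 had 9.43, 7.73 and 8.14 CPM in PATR1 libraries, against 32.9, 34 and 32.8 CPM in WT libraries. Of 10 nspb genes 8 fell, of 16 idpp genes 8, and of 12 abu genes 6. nspb-8 had 1.81, 1.39 and 1.98 CPM in PATR1 libraries, against 5.67, 4.99 and 6.08 CPM in WT libraries, and idpp-15 had 14.7, 15.3 and 14.4 CPM in PATR1 libraries, against 47.9, 45.6 and 45.2 CPM in WT libraries. Of 10 wrt genes (hedgehog-related proteins of the warthog group) 4 fell and 1 rose, and of 10 sra chemoreceptor genes 3 fell and 2 rose. The abu genes encode proteins of the pharyngeal cuticle; abu-6 had 10.4, 10.3 and 9.56 CPM in PATR1 libraries, against 32.8, 29 and 29.4 CPM in WT libraries and abu-4 had 1.06, 0.696 and 1.08 CPM in PATR1 libraries, against 7.85, 7.19 and 6.55 CPM in WT libraries.

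**Figure D4:**
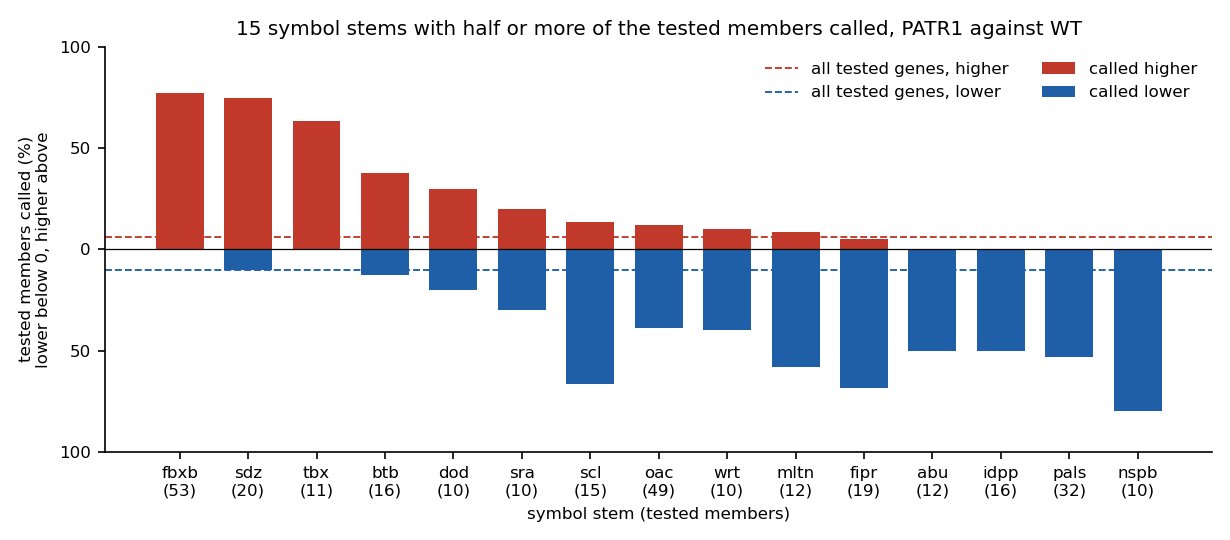
Share of tested members called higher (red, above 0) and lower (blue, below 0) for the 15 symbol stems with at least 50% called; dashed lines mark the shares over all tested genes, 6.02% and 10.5%. fbxb, sdz and tbx are mainly higher, and scl, fipr, pals and nspb mainly lower.

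Genes of the egg and the early embryo were higher in PATR1. Of 18 eggshell genes 11 rose and none fell, and all 18 had an adjusted p below 0.05 on the higher side, against 38.7% of all tested genes. Their median log2 fold change was 1.04, and their summed level was 10899 ± 73.6 CPM in PATR1 and 5509.7 ± 110.4 CPM in WT (SD, n = 3 each). Against UNC5 none of the 18 was called, and their median log2 difference was 0.32. chs-1, the chitin synthase of the shell, had 451, 447 and 439.7 CPM in PATR1 libraries, against 189, 199.7 and 201 CPM in WT libraries (log2 fold change 1.18 ± 0.033, adjusted p = 5.8e-25). egg-3, which helps the fertilized oocyte change its surface, had 130.5, 132 and 129 CPM in PATR1 libraries, against 57.4, 58.2 and 58.3 CPM in WT libraries. In a bulk sample, a larger share of cells of a type and more RNA per cell cannot be told apart. The count of called eggshell genes was 7 with RLE factors and in DESeq2, 4 with the 5 CPM filter and 3 with library sizes alone, the rises lying near 2-fold.

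Of 35 genes that regulate oocytes and maternal RNA 10 rose and 34 were higher by adjusted p, with a median of 0.90. Over all tested genes 6.02% rose and 38.7% were higher by adjusted p. Against UNC5 none of the 35 was called, and their median log2 difference was 0.44. pos-1, an RNA-binding protein of the posterior embryo, had 434, 418 and 429.9 CPM in PATR1 libraries, against 172, 176 and 176 CPM in WT libraries (log2 fold change 1.29 ± 0.0339, adjusted p = 1.2e-25). oma-2, needed for oocyte maturation, had 299, 313 and 307 CPM in PATR1 libraries, against 133, 135 and 130.4 CPM in WT libraries. nos-2, a Nanos homologue of the germ lineage, had 79.7, 83.6 and 89.9 CPM in PATR1 libraries, against 31.1, 29.9 and 31.6 CPM in WT libraries. Of 18 P granule genes 4 rose, all meg genes, which organize these germline RNA bodies. meg-1 had 119.5, 128 and 122 CPM in PATR1 libraries, against 51.6, 53.5 and 52.7 CPM in WT libraries, and pgl-1, a core component, had 452, 449 and 447 CPM in PATR1, against 297, 314 and 296 CPM in WT (log2 fold change 0.57, not called). Under the other scalings, the 5 CPM filter or DESeq2, 5 or 6 of the oocyte genes were called. The 4 P granule calls became 2 with library sizes alone and with the 5 CPM filter. rme-2, the yolk receptor of oocytes, had 625, 623 and 637 CPM in PATR1, against 303, 323 and 312 CPM in WT (log2 fold change 1.01). It was not called in DESeq2.

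Most tested genes first transcribed by the embryo itself were called higher. Of 33 genes on this list 22 were tested, 15 rose and 1 fell, and the median log2 fold change was 1.73. vet-1 and vet-2, very early transcripts, had 4.09, 4.79 and 4.99 CPM in PATR1 libraries, against 1.08, 1.09 and 1.06 CPM in WT libraries for vet-1 and 10.6, 11.5 and 10.5 CPM in PATR1 libraries, against 3.98, 3.51 and 3.52 CPM in WT libraries for vet-2. skr-7, a Skp1-related ubiquitin ligase subunit, had 7.94, 7.78 and 8.29 CPM in PATR1 libraries, against 2.33, 2.29 and 2.11 CPM in WT libraries. nhr-68 was the member that fell, with 9.21, 10.9 and 9.46 CPM in PATR1 libraries, against 24.6, 23.8 and 23.3 CPM in WT libraries. Levels of most of these genes are low: with the 5 CPM filter 2 of the rises are called. None of the 22 was called higher in PATR1 than in UNC5 and 2 were lower, and the median difference from UNC5 was 0.09. Of 19 skr genes 8 rose and 1 fell (2 rose with the 5 CPM filter); skr-8 had 1.43, 1.34 and 1.72 CPM in PATR1 libraries, against 0.169, 0.151 and 0.175 CPM in WT libraries. Of 32 tested histone genes, of 72 in all, 12 rose and 1 fell (4 rose with the 5 CPM filter). Histone messages mostly lack poly(A) tails and these libraries were poly(A)-selected, so the levels of his-59, 6.63, 6.73 and 7.18 CPM in PATR1 libraries, against 1.81, 1.82 and 2.19 CPM in WT libraries, cover a part of its RNA at most.

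Cell division genes moved the same way but mostly by less than 2-fold. Over all tested genes 6.02% rose and 38.7% were higher by adjusted p. Of 34 replication genes 8 rose and 32 were higher by adjusted p, with a median of 0.81. orc-1, of the origin recognition complex, had 92, 91.4 and 95.4 CPM in PATR1 libraries, against 44.7, 43.9 and 41.7 CPM in WT libraries, and cdc-25.3, of the phosphatase family that triggers division, had 24.1, 26.4 and 27 CPM in PATR1 libraries, against 8.44, 8.58 and 9.15 CPM in WT libraries. With RLE factors and in DESeq2 5 were called, with the 5 CPM filter 2 and with library sizes alone 1. All 42 meiosis genes were higher by adjusted p and 3 rose: spo-11, which makes the breaks for recombination, zhp-1 and him-5. With RLE factors and in DESeq2 zhp-1 alone was called, while spo-11 and him-5 had log2 fold changes of 0.95 and 0.99. spo-11 had 46.3, 45.5 and 45.9 CPM in PATR1 libraries, against 22.9, 22.8 and 23 CPM in WT libraries. Of 50 spindle and cytokinesis genes 48 were higher by adjusted p and 1 rose, the cyclin gene cyb-3, with 622, 548 and 611 CPM in PATR1 libraries, against 284, 271 and 278 CPM in WT libraries (log2 fold change 1.10 ± 0.0379, adjusted p = 6.6e-22). cyb-3 was not called with library sizes alone (0.98) or with the 5 CPM filter (0.99).

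Genes of the general cell machinery stood slightly higher. Over all tested genes 38.7% were higher by adjusted p and 44.9% lower. In edgeR and in DESeq2 no member of the following lists was called, although by adjusted p most stood higher. This held for 76 of 78 cytosolic ribosomal protein genes (median 0.34), 32 of 32 aminoacyl-tRNA synthetases (0.31), 39 of 39 splicing genes (0.49) and 26 of 26 nuclear pore genes (0.60). It also held for 22 of 22 RNA polymerase subunits (0.50), 32 of 33 proteasome subunits (0.41), 21 of 21 nucleolar genes (0.41) and 36 of 39 genes of mRNA decay (0.55). The counts at an unadjusted p below 0.05 were the same in these 8 lists. Among the mRNA decay genes cgh-1, a helicase that stores and represses messages, had 1965, 1892 and 1834 CPM in PATR1 libraries, against 1109, 1174 and 1182 CPM in WT libraries (log2 fold change 0.72 ± 0.037), and npp-9 of the nuclear pore had 749 ± 11.4 CPM in PATR1 and 506 ± 15.9 CPM in WT. The summed ribosomal protein level was 91216 ± 2913 CPM in PATR1 and 73148 ± 426 CPM in WT (SD, n = 3 each). Of 47 small RNA pathway genes 45 were higher by adjusted p and 1, eri-7, rose. Of 22 Argonaute genes alg-5 rose and wago-10 and sago-2 fell. With RLE factors and in DESeq2 neither eri-7 (log2 fold change 0.97) nor alg-5 (0.99) was called.

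Sperm genes were mostly level or lower than in WT, and higher than in UNC5. Among 29 major sperm protein genes none was called in edgeR or DESeq2, with 11 higher and 14 lower at an unadjusted p below 0.05 and a median of -0.13. In edgeR 28 of them were called higher in PATR1 than in UNC5, against 9.46% of all tested genes. Their summed level was 1104 ± 23.6 CPM in PATR1 and 1182 ± 56.3 CPM in WT (SD, n = 3 each). Of 30 spermatogenesis genes 2 fell, among them spe-49, with 4.23, 4.25 and 4.23 CPM in PATR1 libraries, against 9.81, 8.95 and 8.69 CPM in WT libraries. By adjusted p 24 of the 30 were lower, against 44.9% of all tested genes. The median was -0.61, and 24 of the 30 were called higher in PATR1 than in UNC5. The yolk protein genes parted: vit-6 had 32485, 30981 and 28805 CPM in PATR1 libraries, against 23496, 22871 and 22956 CPM in WT libraries (log2 fold change 0.41 ± 0.046) and vit-2 stood 0.59 higher on the same scale, both uncalled, whereas vit-1 fell as given above.

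Many cuticle genes fell, though most of those tested were not called. Of 148 tested col genes 63 fell and 2 rose, with a median of -0.78, and their summed level was 30950.0 ± 625 CPM in PATR1 and 46215 ± 954 CPM in WT (SD, n = 3 each). col-143 was one of the rises, with 1044, 1090.4 and 1041 CPM in PATR1 libraries, against 480.2, 498 and 490.2 CPM in WT libraries (log2 fold change 1.11 ± 0.0375, adjusted p = 1.0e-22; 0.99 with library sizes alone). rol-8, a collagen gene named for its roller mutants, had 142, 138 and 143 CPM in PATR1 libraries, against 740.2, 717 and 723 CPM in WT libraries (log2 fold change -2.37 ± 0.0331, adjusted p = 2.2e-33). Of 33 cuticlins 9 fell and 2 rose; cut-6 had 2.9, 2.76 and 2.27 CPM in PATR1 libraries, against 61.5, 61.7 and 63.5 CPM in WT libraries. Of 54 hedgehog-related genes 19 fell and 1 rose. These encode secreted proteins of the apical matrix, and grl-20 had 0.136, 0.103 and 0.113 CPM in PATR1 libraries, against 188, 183 and 191 CPM in WT libraries (log2 fold change -10.61 ± 0.081, adjusted p = 8.0e-41). grl-25 had 2.69, 2.81 and 2.51 CPM in PATR1 libraries, against 497, 474 and 475 CPM in WT libraries, and the summed level of the group was 1306 ± 8.3 CPM in PATR1 and 3382 ± 51.2 CPM in WT. Of 24 moulting genes 4 fell. mlt-11, a protease inhibitor of the moult, had 168, 159 and 154 CPM in PATR1 libraries, against 326, 337 and 342 CPM in WT libraries, and fbn-1, a fibrillin-like matrix protein, had 29.4, 28.4 and 27.9 CPM in PATR1 libraries, against 77.6, 82.2 and 82.4 CPM in WT libraries. Of 39 epidermal genes 3 fell and 2 rose, with 7.69% lower, below the 10.5% of all genes; bli-3, the dual oxidase that cross-links the cuticle, had 42.8, 40.4 and 40.2 CPM in PATR1 libraries, against 102, 104 and 101 CPM in WT libraries. The adult collagen marker col-19 had 768, 781 and 781 CPM in PATR1, against 902, 887 and 894 CPM in WT, and rol-6 had 109, 97.9 and 107 CPM in PATR1, against 104, 105 and 102 CPM in WT.

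Markers of other stages moved beside these cuticle genes. The dauer collagen gene col-2 had 0.317, 0.206 and 0.208 CPM in PATR1 libraries, against 786, 698 and 745 CPM in WT libraries, and col-40 had 0.995, 0.851 and 0.775 CPM in PATR1 libraries, against 512, 518 and 519 CPM in WT libraries; both dauer markers fell. The larval markers mlt-10 and lin-14 were lower by adjusted p (log2 fold changes -0.90 and -0.49) and lin-28 was higher (0.64), none of them called. The part of a difference in stage in the cuticle and embryo results was not tested.

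Muscle genes were mostly lower, with calls in the pharynx. Over all tested genes 10.5% fell and 44.9% were lower by adjusted p. Of 21 pharyngeal muscle and cuticle genes 9 fell and 20 were lower by adjusted p, with a median of -0.96. With library sizes alone 14 fell. myo-1 and myo-2 encode the myosins of the pharynx; myo-1 had 101, 94.9 and 94.2 CPM in PATR1 libraries, against 238, 251 and 245 CPM in WT libraries (log2 fold change -1.34 ± 0.0332, adjusted p = 2.5e-26) and myo-2 had 130.2, 124 and 124 CPM in PATR1 libraries, against 282, 299 and 289.6 CPM in WT libraries (log2 fold change -1.20 ± 0.032, adjusted p = 1.9e-25). peb-1, a DNA-binding protein of pharyngeal cells, had 8.69, 9.23 and 8.71 CPM in PATR1 libraries, against 28, 28.7 and 28.7 CPM in WT libraries. Of 42 body wall muscle genes none was called in edgeR and 1 in DESeq2, but 38 were lower and 3 higher at an unadjusted p below 0.05, with a median of -0.49. unc-54, the main body wall myosin, had 2908, 2768 and 2728 CPM in PATR1 libraries, against 4199, 4481 and 4285 CPM in WT libraries (log2 fold change -0.63 ± 0.039), and the list summed to 17059 ± 233 CPM in PATR1 and 24020.0 ± 347 CPM in WT (SD, n = 3 each). Pharyngeal gland genes parted, with 3 of 9 higher, all phat genes; phat-4 had 33.8, 32.4 and 34 CPM in PATR1 libraries, against 6.63, 6.66 and 6.58 CPM in WT libraries.

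Neuronal genes were mostly lower, with few calls. Of 37 pan-neuronal genes 1 fell, madd-4, a secreted organizer of neuromuscular synapses, with 11.6, 12.1 and 10.9 CPM in PATR1 libraries, against 25.2, 24.8 and 25.2 CPM in WT libraries, and the median was -0.41. By adjusted p 24 of the 37 were lower and 10 higher, against 44.9% and 38.7% of all tested genes. Their summed level was higher in PATR1, at 4022 ± 16 CPM, against 3840.5 ± 81.5 CPM in WT (SD, n = 3 each). The neuron marker snb-1 was also higher (log2 fold change 0.42, not called). Among genes of transmitter synthesis and uptake, unc-25 (glutamate decarboxylase, which makes GABA) had 14.9, 15.3 and 14.9 CPM in PATR1 libraries, against 31.1, 31.2 and 31.4 CPM in WT libraries, and cat-2 (tyrosine hydroxylase, for dopamine) had 1.27, 0.98 and 0.907 CPM in PATR1 libraries, against 2.52, 2.51 and 2.98 CPM in WT libraries. These make 2 of the 3 falls among 22 such genes, a count that was 5 without PATR1 replicate 1 and 6 with library sizes alone. tdc-1 (tyrosine decarboxylase, for tyramine) rose, with 173, 169.7 and 172 CPM in PATR1 libraries, against 81.4, 84.3 and 84 CPM in WT libraries. It was not called with RLE factors or in DESeq2 (0.99 each), with library sizes alone (0.92) or with the 5 CPM filter (0.93). Among peptides, 15 of 68 nlp genes, 7 of 30 flp genes and 12 of 32 ins genes fell, and 2 ins genes rose. As shares, 22.1% of nlp, 23.3% of flp and 37.5% of ins genes fell, against 10.5% of all tested genes. Of 79 neuropeptide receptor genes 8 fell, 10.1% and close to the share over all genes. These shares were not tested against each other. With the 5 CPM filter 8 nlp, 3 ins and 1 receptor gene were called lower, and with library sizes alone 11 flp genes. nlp-24 had 37.1, 33.3 and 36.6 CPM in PATR1 libraries, against 95.7, 87.8 and 92.3 CPM in WT libraries. flp-33, of the FMRFamide-like peptides, had 1.83, 2.04 and 2.13 CPM in PATR1 libraries, against 10.4, 9.37 and 9.42 CPM in WT libraries, and ins-33, an insulin-like peptide, had 0.973, 1.44 and 0.926 CPM in PATR1 libraries, against 5.74, 5.35 and 5.44 CPM in WT libraries. PATR1 was also below UNC5 for 34 nlp, 19 flp and 16 ins genes by the same call, against 11.5% of all tested genes. Of 59 axon guidance genes, unc-71, an ADAM family protein, rose, with 135, 131 and 132 CPM in PATR1 libraries, against 59.7, 63.7 and 62 CPM in WT libraries, and madd-4 fell; unc-71 was not called with library sizes alone (0.98). Touch receptor neuron genes (15) had no call in edgeR or DESeq2, with 12 lower and 1 higher at an unadjusted p below 0.05.

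Many genes of fasting and fat use fell. Of 29 dauer and starvation genes 17 fell and 1 rose, with a median of -1.36, and they summed to 969 ± 12 CPM in PATR1 and 4181 ± 48.8 CPM in WT (SD, n = 3 each), a sum that holds the collagens col-2 and col-40. acs-2, which activates fatty acids for mitochondrial breakdown and is induced by fasting, had 4.28, 4.23 and 3.91 CPM in PATR1 libraries, against 222, 239 and 243 CPM in WT libraries (log2 fold change -5.83 ± 0.0507, adjusted p = 2.9e-39). Of 10 lipase genes 6 fell and 1 rose; lipl-5, a lysosomal lipase induced by fasting, had 179, 181 and 192 CPM in PATR1 libraries, against 515, 547 and 559 CPM in WT libraries. Of 52 acyl-CoA synthetases, dehydrogenases and thioesterases 6 fell and 1 rose (10 fell with library sizes alone). These 6 falls made up 11.5% of the list, near the 10.5% of all tested genes that fell. acdh-1, an acyl-CoA dehydrogenase, had 0.339, 0.309 and 0.208 CPM in PATR1 libraries, against 21.4, 20 and 20.2 CPM in WT libraries (log2 fold change -6.18 ± 0.113, adjusted p = 4.8e-30), and it was lower than in UNC5 too (log2 difference -7.80 ± 0.0962). Of 16 desaturases and elongases 5 fell. fat-5, a palmitoyl-CoA desaturase, had 7.37, 7.99 and 7.59 CPM in PATR1 libraries, against 79.1, 80.8 and 82.5 CPM in WT libraries (log2 fold change -3.40 ± 0.0472, adjusted p = 1.7e-33), and elo-6, an elongase for branched-chain fatty acids, had 204, 211 and 220.1 CPM in PATR1 libraries, against 636, 594 and 586 CPM in WT libraries. Lipid-binding genes went both ways: 4 of 16 fell, but the median was -0.11, as over all genes, and the summed level was 4927 ± 49.9 CPM in PATR1 and 4253 ± 173 CPM in WT. far-3 was among the falls, with 14.2, 14.8 and 15.5 CPM in PATR1 libraries, against 51.2, 49.5 and 50.2 CPM in WT libraries. aqp-1, an aquaglyceroporin of the intestine, had 15.6, 14.6 and 15.2 CPM in PATR1 libraries, against 124, 119.8 and 129 CPM in WT libraries (log2 fold change -3.03 ± 0.0414, adjusted p = 1.1e-33).

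Intestinal digestion genes fell in part. Of 29 intestine genes 5 fell, with a median of -0.42. pept-1, the transporter for dietary peptides, had 80.6, 78.1 and 80.2 CPM in PATR1 libraries, against 213, 213 and 213 CPM in WT libraries (log2 fold change -1.42 ± 0.031, adjusted p = 7.6e-28). cpr-1 and cpr-4, cathepsin B-like proteases, had 72.1, 77.3 and 77.5 CPM in PATR1 libraries, against 445, 415 and 425 CPM in WT libraries for cpr-1 and 153, 156 and 159.7 CPM in PATR1 libraries, against 679, 711 and 716 CPM in WT libraries for cpr-4. mtl-2, a metallothionein, had 0.136, 0.129 and 0.189 CPM in PATR1 libraries, against 7.26, 6.41 and 6.73 CPM in WT libraries. The most abundant cathepsins were not called: cpl-1 stood at 1072 ± 28.4 CPM in PATR1 and 1241 ± 58.1 CPM in WT, and cpr-9 at 781 ± 38.6 CPM in PATR1 and 811 ± 16.8 CPM in WT. elt-2, the intestinal GATA factor, had 20.9, 19.7 and 20.3 CPM in PATR1, against 28.6, 29.7 and 27.3 CPM in WT, a log2 fold change of -0.49 that was not called.

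Defence and detoxification genes moved both ways, mostly lower. Of 166 tested C-type lectin genes, of 240 in all, 63 fell and 14 rose, with a median of -0.64, and 29 fell and 8 rose with the 5 CPM filter. clec-60, a gene induced by infection, had 60.3, 62.6 and 64.8 CPM in PATR1 libraries, against 460.4, 467 and 487 CPM in WT libraries (log2 fold change -2.91 ± 0.0354, adjusted p = 3.8e-35), and clec-61 had 4.64, 5.44 and 5.01 CPM in PATR1 libraries, against 109, 113 and 111 CPM in WT libraries. clec-87 rose, with 781, 746 and 767 CPM in PATR1 libraries, against 331, 334 and 337 CPM in WT libraries (log2 fold change 1.20 ± 0.0323, adjusted p = 2.6e-25). pals genes are known from the response to intracellular pathogens; 17 of 32 fell (9 with the 5 CPM filter), with a median of -1.42, and pals-14 had 6.51, 6.52 and 6.56 CPM in PATR1 libraries, against 29, 29.6 and 28.6 CPM in WT libraries. Of 27 saposin-like genes 9 fell (4 with the 5 CPM filter); spp-27 had 0.0226, 0.103 and 0.0378 CPM in PATR1 libraries, against 9.91, 9.4 and 10.2 CPM in WT libraries (log2 fold change -7.51 ± 0.182, adjusted p = 1.3e-26; -8.20 without PATR1 replicate 2). Of 14 lysozyme genes 2 fell and 1 rose: ilys-6 had no read in PATR1, against 1.16, 1.1 and 1.25 CPM in WT, at least 53-fold lower (a fitted log2 fold change of -8.86, and -4.94 with both strands counted), and lys-5 had 9.57, 10.1 and 11.6 CPM in PATR1 libraries, against 2.75, 3.09 and 3.01 CPM in WT libraries. lys-1, the most abundant lysozyme, stood at 1219 ± 46.8 CPM in PATR1 and 1223 ± 43.5 CPM in WT and was not called.

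Of 68 cytochrome P450 genes 28 fell and 3 rose, and 13 fell with the 5 CPM filter. cyp-35A2, of a family induced by foreign compounds, had 4.18, 4.51 and 5.08 CPM in PATR1 libraries, against 24.6, 24.2 and 24.3 CPM in WT libraries, and cyp-35B1 had 0.317, 0.335 and 0.416 CPM in PATR1 libraries, against 5.89, 6.99 and 6.65 CPM in WT libraries. cyp-14A5 rose, with 47.1, 45.9 and 48.2 CPM in PATR1 libraries, against 12.6, 12.7 and 11.6 CPM in WT libraries (log2 fold change 1.94 ± 0.046, adjusted p = 6.9e-27). Glutathione transferases were evenly parted, with 6 of 42 higher and 7 lower (2 lower with the 5 CPM filter). gst-4, a reporter of oxidative stress, had 23.9, 23.4 and 25.4 CPM in PATR1 libraries, against 7.97, 7.33 and 7.38 CPM in WT libraries. gst-24 had 39.9, 44.5 and 44.9 CPM in PATR1 libraries, against 8.58, 9.94 and 8.93 CPM in WT libraries, and gst-3, which fell, had 1.54, 2.11 and 1.68 CPM in PATR1 libraries, against 12, 12.5 and 11.6 CPM in WT libraries. Of 65 UDP-glucuronosyltransferases 12 fell and 4 rose; ugt-65 had 9.41, 10.3 and 10.1 CPM in PATR1 libraries, against 53.8, 55 and 55.8 CPM in WT libraries. Of 19 heat shock genes 4 rose and 2 fell. hsp-16.41, a small heat shock protein, had 32.3, 35.1 and 37.8 CPM in PATR1 libraries, against 11.2, 11.1 and 10.9 CPM in WT libraries, and hsp-16.2 had 22.7, 23.5 and 24.7 CPM in PATR1 libraries, against 8.73, 7.29 and 7.36 CPM in WT libraries. hsp-12.6 went the other way, with 0.181, 0.18 and 0.246 CPM in PATR1 libraries, against 1.43, 1.32 and 1.46 CPM in WT libraries. sod-3, a superoxide dismutase under DAF-16 control, had 10.9, 10.6 and 11 CPM in PATR1 libraries, against 23.6, 23.5 and 23.5 CPM in WT libraries.

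**Figure D5:**
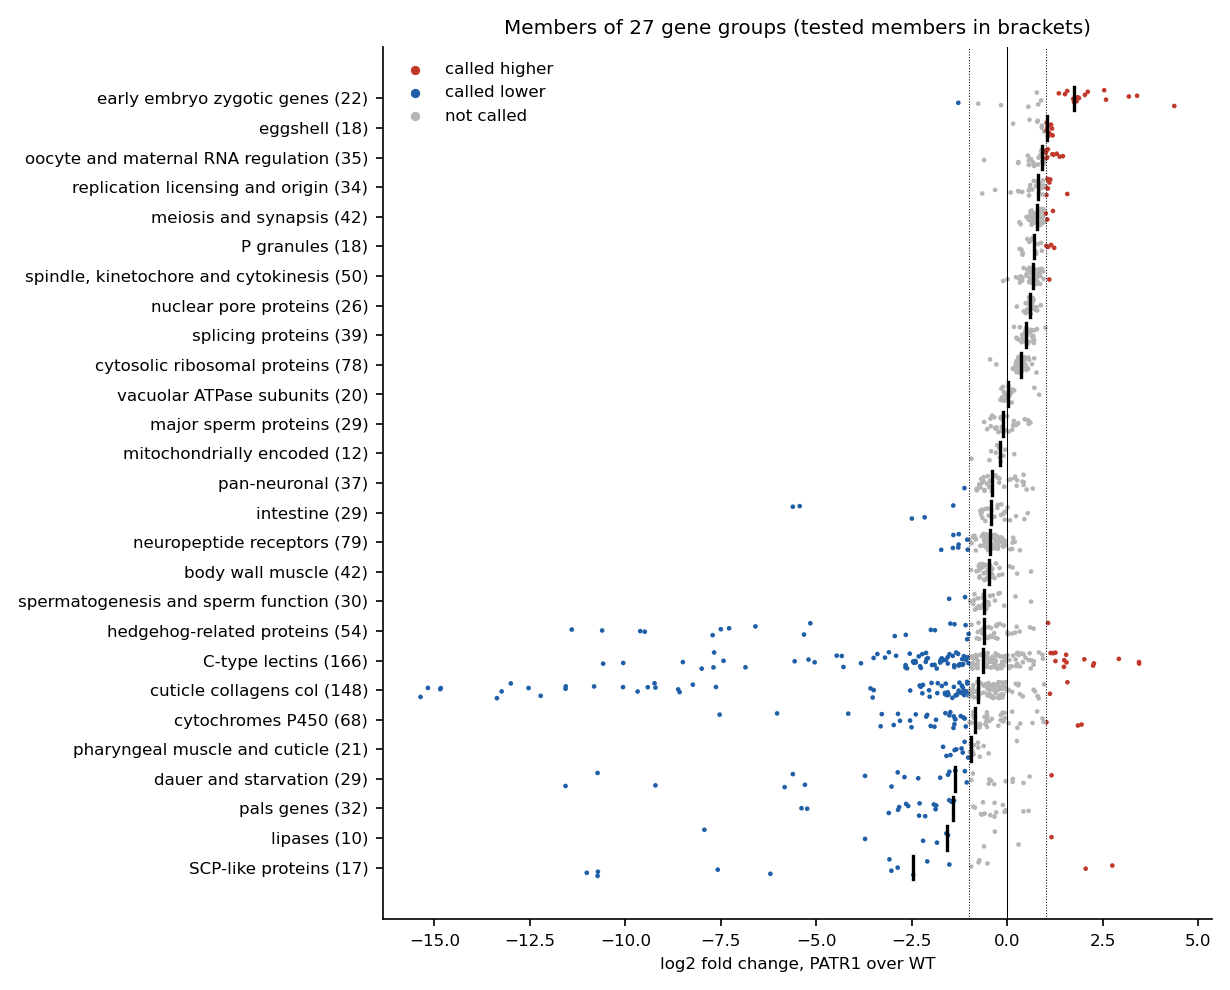
Log2 fold change (PATR1 over WT) of each tested member of 27 gene groups, 1 row a group and 1 point a gene, with called genes coloured, a black tick at each group's median and dotted lines at 2-fold. The early embryo and eggshell groups reach to the right, and collagens, hedgehog-related, dauer and P450 groups far to the left; values of genes without a read in PATR1 depend on the prior count.

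The remaining families are given mainly by their counts, and over all tested genes 6.02% rose and 10.5% fell. Nuclear hormone receptors (3.62% rose, 10.4% fell) and ligand-gated channels (4.71% fell) did not exceed these shares. Set and Jumonji genes (7.50% rose) lay near them. Among regulators, 8 of 221 nuclear hormone receptors rose and 23 fell, 6 of 53 homeobox genes rose and 3 fell and 4 of 29 bHLH and bZIP factor genes rose and 1 fell; zip-11 had 37.5, 36.3 and 37.5 CPM in PATR1 libraries, against 10.3, 10.8 and 11.8 CPM in WT libraries, and ceh-49 had 13.7, 12.5 and 14.2 CPM in PATR1 libraries, against 4.59, 4.73 and 4.73 CPM in WT libraries. In total, 78 of 245 F-box genes rose and 19 fell, which include the fbxb genes. With the 5 CPM filter 6 F-box genes rose and 6 fell, and with no filter 123 rose. 21 of 79 BTB and MATH genes rose and 11 fell (9 and 17 with library sizes alone, and 4 rose with the 5 CPM filter). fbxa-215 was the most abundant of the named F-box rises, with 126, 125 and 132 CPM in PATR1 libraries, against 53.8, 54.8 and 54.7 CPM in WT libraries. Further, 3 of 40 chromatin genes of the Set and Jumonji classes rose, and 3 of 20 metal transport genes rose and 1 fell. zipt-7.1, a zinc transporter, had 86.6, 85.7 and 86.1 CPM in PATR1 libraries, against 38.1, 37 and 38.6 CPM in WT libraries, and cdf-2, a zinc storage transporter, had 6.15, 6.11 and 5.86 CPM in PATR1 libraries, against 17.4, 17.5 and 17.3 CPM in WT libraries. Of receptors and channels, 15 of 196 serpentine chemoreceptors rose and 50 fell (of 1310 annotated; 0 and 1 with the 5 CPM filter, 30 and 144 with no filter), 4 of 85 ligand-gated channels fell (8 with RLE factors, in DESeq2 or without PATR1 replicate 1, and 10 with library sizes alone), 6 of 44 two-pore potassium channels fell, and 2 of 21 innexins rose. inx-2, a gap junction subunit, had 20.6, 21.9 and 21.5 CPM in PATR1 libraries, against 8.25, 8.8 and 7.81 CPM in WT libraries.

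Among enzymes and secreted proteins, 1 of 38 astacin and matrix metalloproteases rose and 9 fell, 1 of 14 aspartyl proteases rose and 5 fell, 2 of 27 chitinase-like proteins rose and 9 fell, 1 of 19 acid phosphatases rose and 3 fell and 3 of 46 ABC transporters rose and 4 fell. nas-28, an astacin protease, had 1.2, 1.42 and 0.945 CPM in PATR1 libraries, against 12.2, 11.9 and 11.9 CPM in WT libraries, and pgp-5, a P-glycoprotein transporter, had 49.6, 48.4 and 46.2 CPM in PATR1 libraries, against 11.3, 10.9 and 11.1 CPM in WT libraries. Over all tested genes 6.02% rose and 10.5% fell, and ABC transporters (6.52% and 8.70%) lay near these shares. Of 57 transthyretin-like proteins 3 rose and 4 fell (5.26% and 7.02%), and of 13 tubulins 1 rose and 1 fell. Of 8 phat peptides 3 rose (37.5%), but their median log2 fold change turned from 0.19 to -0.73 with the 5 CPM filter. ttr-44 had 42.1, 45.6 and 44 CPM in PATR1 libraries, against 134, 125 and 124 CPM in WT libraries, and tba-8, an alpha-tubulin, had 5.84, 5.7 and 5.21 CPM in PATR1 libraries, against 33, 33.3 and 32.6 CPM in WT libraries. Metabolic lists had few calls: idhg-2, an isocitrate dehydrogenase subunit, of 21 citric acid cycle genes fell, with 18.5, 18.9 and 19 CPM in PATR1 libraries, against 55.9, 56.6 and 53.6 CPM in WT libraries, and gyg-2, a glycogenin, of 12 sugar storage genes rose (not in DESeq2). sams-5, an S-adenosylmethionine synthetase, cth-1 and cbs-2 of 19 methionine cycle genes fell and ckb-2, a choline kinase, rose (ckb-2 not in DESeq2); sams-5 had 17.3, 18.3 and 17.5 CPM in PATR1 libraries, against 49.6, 48.1 and 48.6 CPM in WT libraries. No glycolysis gene of 19 was called in edgeR and 1 was in DESeq2, with 12 lower and 3 higher at an unadjusted p below 0.05. None of the 12 mitochondrially encoded genes was called by either tool, with 8 lower and 1 higher at an unadjusted p below 0.05. The median of 20 vacuolar ATPase genes was 0.02, and turned to -0.03 with RLE factors and -0.10 with library sizes alone. The somatic gonad list had 4 of 30 higher, apx-1 among them, a Notch ligand, with 161, 155 and 155 CPM in PATR1 libraries, against 73.5, 75.3 and 76.9 CPM in WT libraries; 1 of the 4 was called with library sizes alone and 0 with the 5 CPM filter, apx-1 in neither. mom-2, a Wnt ligand of the early embryo, had 101, 111 and 112 CPM in PATR1 libraries, against 44.3, 46.4 and 44.1 CPM in WT libraries.

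Further lists are given in brief, some with many calls and some with few. Over all tested genes 6.02% rose and 10.5% fell. Falls made up 38.9% of fungus-induced and antimicrobial peptide genes, 27.7% of abu and pqn genes and 32.4% of the nspa to nspe stems. Of 36 fungus-induced and antimicrobial peptide genes 14 fell and 1 rose, of 65 abu and pqn genes 18 fell and 1 rose, and of 34 nematode-specific peptides of the nspa to nspe stems 11 fell and 4 rose. Of 30 short-chain dehydrogenases 5 fell, of 26 patched-related genes 4, and of 19 amino acid and neurotransmitter transporters 3. Aquaporins (16.7% of 12) and male-specific genes (15.4% of 13) had 2 falls each and no rise. The same counts lay below the 10.5% of all genes for guanylyl cyclases (7.14%) and adhesion proteins of the immunoglobulin class (8.33%). They also did for amino acid breakdown genes (9.52%) and coelomocyte and excretory genes (8.70%). Rab GTPases had 1 fall (5%). Of 57 cilia genes 2 rose and 2 fell, of 17 glial genes 1 rose and 2 fell, of 24 proteotoxic stress genes 3 rose and 2 fell, and of 33 Wnt and TGF-beta genes 1 rose and 1 fell. Of 32 oxidative and hypoxic defence genes 1 rose and 2 fell, with a median of 0.03 that turned to -0.03 with RLE factors and -0.09 with library sizes alone. No gene was called in edgeR or DESeq2, with counts at an unadjusted p below 0.05 in brackets, among 70 mitochondrial ribosomal protein genes (61 higher and 0 lower), 39 translation factors (35 higher and 3 lower), 33 autophagy and lysosome genes (26 higher and 6 lower) and 21 ubiquitin conjugating enzymes (13 higher and 3 lower). The same held for 12 kinesins (8 higher and 4 lower), 25 secretory folding genes (11 higher and 10 lower), 19 nuclear respiratory chain genes (4 higher and 8 lower), 23 basement membrane genes (4 higher and 14 lower) and 27 genes of small sperm-enriched families (2 higher and 19 lower). Among 12 galectins (4 higher and 6 lower) none was called in edgeR and 1 in DESeq2. Of the small sperm families, 26 were called higher in PATR1 than in UNC5, against 9.46% of all tested genes.

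Calls were uneven along the genome. On chromosome V 645 of 3769 tested genes fell (17.1%), against 5.87% on chromosome III, and on chromosome II 8.57% rose, the largest share of the 6 nuclear chromosomes. The rises of chromosome II lay toward its ends, outside the middle 50% of its length, where 13.2% of 1341 genes rose, against 4.9% inside it. Chromosome X had the lowest median, -0.29, and chromosomes I and III the highest, 0.16 and 0.18. Of 733 tested pseudogenes 65 rose and 90 fell (8.87% and 12.3%), against 6.02% and 10.5% of all tested genes. Of 141 genes annotated as ncRNA 14 rose and 14 fell (9.93% each). Of 73 lincRNAs 5 rose and 9 fell; linc-125 had 0.385, 0.438 and 0.189 CPM in PATR1 libraries, against 3.65, 3.31 and 3.86 CPM in WT libraries. RNA without a poly(A) tail is seen here only in part, and genes on opposite strands of one place were told apart by the strand of the reads.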

How the data were processed

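Messenger RNA of 9 whole-animal libraries was sequenced. Per the labels, total RNA from synchronized young adults was poly(A)-selected. Per the submitters' processing notes, reads were handled with FastQC 0.11.9, cutadapt 3.5 and STAR 2.7.11b on WBcel235. The deposited files hold STAR's raw read counts per gene in 3 strand settings, made by the authors before deposit, and the reverse-strand counts were used. Unmapped, multimapping, no-feature and ambiguous reads are given in the files outside the gene counts and stayed out of library sizes.

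From these counts, edgeR 4.0.16 (TMM scaling, filterByExpr, robust quasi-likelihood fit over all 9 libraries, contrast of PATR1 over WT) was run in R 4.3.3, with Benjamini-Hochberg adjustment over 17512 genes. CPM values were computed here. Alternatives were RLE factors, library sizes alone, no filter, a 5 CPM filter, DESeq2 1.42.0, unstranded counts, the 6 libraries alone, a replicate block and each library left out. Gene names and coordinates came from Ensembl release 115, which lists 46918 of the 46926 genes.

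Named genes were unc-5, patr-1, the 12 largest changes in each direction with a mean of at least 5 CPM, the 10 largest clone-named changes and CPM differences in each direction, up to 4 called members with the smallest adjusted p (or up to 2 uncalled abundant ones) of each of 111 lists and of the symbol stems with at least 50% called, and fixed markers; residents of chromosome stretches were added after their values were seen. The members and lists were chosen with earlier results of these data known. List counts are descriptions without a test. Depth of 40657619 to 60642199 reads in PATR1 and WT allows 3 counts over a group as the floor, and intervals cover counting error only. Tested on simulated data with 17512 genes for PATR1 against WT, the fit recovered 96 of 100 genes changed 1.5-fold and called 0 of them, and called 100 of 100 changed 3-fold; 22 unchanged genes passed the adjusted p and 0 were called. The genes changed in the simulation were few, as many up as down, and above 1 CPM in WT. In the real data 83.6% of tested genes passed the adjusted p, with more falls than rises. The simulation therefore does not cover errors of scaling or changed genes below 1 CPM. Replicates of a group differed by more than sampling noise.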

Additional observations from a re-analysis of the deposited data

Results flagged for a closer look

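Of the reads outside the gene counts, 2 classes stood higher in PATR1 than in WT and 2 lower. Reads that fit several places (3.12% to 3.16% in PATR1, 4.69% to 4.96% in WT) were lower. So were ambiguous reads (1.07% to 1.10% in PATR1, 1.18% to 1.20% in WT). Reads with no place in the genome were 6.02%, 3.43% and 2.86% of reads in the PATR1 libraries, in order of replicate number, against 0.621% to 0.629% in the WT libraries. Mapped reads in no annotated gene were 0.734%, 0.678% and 0.748% in the PATR1 libraries, against 0.582% to 0.647% in the WT libraries. The groups did not overlap in any of these measures, and the part of these reads in the results was not tested. With 3 libraries a group, single libraries were not tested for standing apart.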

How the results depend on the processing

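PATR1 against WT gave 2885 calls, 1054 higher and 1831 lower. With the filter of at least 5 CPM in 3 libraries there were 1387 (330 higher, 1057 lower), of which clone-named genes were 182 higher and 469 lower. By the adjusted p alone there were 14640 (6780 higher, 7860 lower), and at a log2 fold change above 2 there were 819 (178 higher, 641 lower). Another threshold makes such differences by construction, and fewer genes tested do so only in part. With the 5 CPM filter 1334 of the main calls were still tested and 1151 stayed called, with TMM factors computed anew. RLE factors gave 2927 calls, library sizes alone 3129, no filter 3560, DESeq2 2910 (2 adjusted p-values missing), unstranded counts 2846 and the 6 libraries alone 2852. Leaving out each library in turn gave 2966 to 3082 calls. Deviations of same-numbered PATR1 and WT libraries correlated at -0.049, -0.020 and -0.012, so no shared effect of a replicate number was seen. Whether same-numbered libraries were prepared together cannot be read from these values, and the labels do not say. With the replicate block 2880 genes were called (1053 higher, 1827 lower), 2876 of them among the 2885. Under unstranded counts 1 called gene turned, btb-12, with a log2 fold change of -1.26 there and 1.89 in the main setting; no other alternative turned a called gene. Of 463 named genes, 14 lost the call with RLE factors, 14 in DESeq2 and 33 with library sizes alone. With 40657619 or more reads a library, depth limits mainly genes below 1 CPM and those without a read in PATR1, whose fold is known only as a bound.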
